A study of Mus musculus with 4 samples.

Results

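The genes of the Wnt signalling pathway were followed in the accessible chromatin of hippocampal neural progenitor cells that carried or lacked an intact Fgf13 gene. They were taken by name alone from a table of tag counts per accessible region: Wnt ligands, Frizzled receptors (Fzd), Lrp5 and Lrp6, R-spondins (Rspo) and their Lgr receptors, the secreted antagonists Dkk, Sfrp and Notum, the ubiquitin ligases Znrf3 and Rnf43, the Shisa family, the cytoplasmic proteins Dvl, Axin, Apc, Ctnnb1 and Nkd, and the Tcf/Lef factors. The rule gave 150 of the 29121 regions and 56 of the 15091 genes in the table. Of these regions, 41 had their centre within 1 kb of an annotated start site and were summed per gene into the start-site accessibility of 38 genes. The other 109 regions were summed separately for 42 genes. All 150 regions and all 38 and 42 sums passed the filter on low counts. Each region belongs to the gene with the nearest start site, at whatever distance, so a region summed for a gene can lie inside its neighbour.

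The 2 Fgf13cko libraries came from mice of genotype hGFAPCre+, Fgf13 flox/y, and the 2 CTRL libraries from mice of genotype hGFAPCre+, Fgf13+/y, all on the C57BL/6 strain and taken at P0. Both groups therefore carried the Cre transgene. It is driven by the human GFAP promoter, which is active in radial glia and astrocytes, so cells outside that lineage would keep the gene. Fgf13 lies on the X chromosome and encodes a member of the fibroblast growth factor family that stays inside the cell. Dissociated hippocampal cells were grown as neurospheres, floating balls of dividing progenitors, for 7 days with FGF-2 and EGF at 20 ng/ml each, and open DNA was tagged with Tn5 transposase (ATAC-seq). Cells of one mouse were spread over 2 wells, and nothing in the labels ties the 2 libraries of a group to different mice. The p-values below therefore measure only how these libraries spread, which may be technical.

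Wnt proteins bind a Frizzled receptor together with Lrp5 or Lrp6, and the receptor complex recruits Dishevelled (Dvl) and Axin. This stops the destruction complex, which is built on Axin and Apc, from marking beta-catenin (Ctnnb1) for degradation, and beta-catenin then binds Tcf/Lef factors at target genes such as Axin2 and Lef1. In the developing hippocampus the neighbouring cortical hem secretes Wnt ligands, Wnt3a among them, that the progenitor field needs in order to grow, and Lef1 is needed for dentate granule cells to form.

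The regions of the table are those in which every library had a peak: merging the 4 peak lists gave 80071 regions, and the 29121 of them with a peak in all 4 libraries had the same start and end as the 29121 regions of the table. A region open in 1 group alone is thus outside the counts. The nuclear regions held 2.55 and 2.63 M tags in Fgf13cko 1 and 2, against 2.78 and 3.25 M in CTRL 1 and 2, and the Wnt pathway regions took 0.426% to 0.436% of them in each library. All 9 neural stem and radial glia markers (Sox2, Nes and Pax6 among them) had a start-site region. So did 4 of 6 neuronal, 3 of 5 astrocyte, 3 of 5 oligodendrocyte lineage and 3 of 5 choroid plexus and cortical hem markers. The same held for 2 of 4 endothelial markers and 1 of 5 meningeal fibroblast markers. None of the microglial or Cajal-Retzius markers had one, though 2 of 5 and 2 of 3 of them had regions elsewhere. Fgf13 itself had 4 regions, none of which passed the test, with log2 fold changes between -0.56 and 0.80. The deletion could not be checked from them, since its exon is not named in the labels.

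Fgf13cko 1 differed from Fgf13cko 2 by region length. Of regions up to 0.5 kb long, the median log2 ratio of Fgf13cko 1 over Fgf13cko 2 was -1.66 over all 2707 regions and -1.21 over the 14 Wnt pathway regions, and above 1.5 kb it was 0.40 and 0.38. Between CTRL 1 and CTRL 2 the same medians stayed between -0.10 and 0.36. The start site of Lgr4 (R-spondin receptor), a region of 0.559 kb, is 1 example, with normalised counts of 56.2 and 250.3 in Fgf13cko 1 and 2, against 131 and 155 in CTRL 1 and 2. It did not pass with all libraries, but passed as higher with Fgf13cko 1 left out and as lower with Fgf13cko 2 left out. Normalised counts are tags divided by each library's TMM-scaled size relative to the average library. The difference between the groups also ran with region length. Over all regions the median log2 fold change of Fgf13cko over CTRL was -0.52 up to 0.5 kb and 0.11 above 1.5 kb. In the Wnt pathway regions it was -0.44 and -0.10. The part of length in the Wnt pathway values was not tested.

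**Figure D1:**
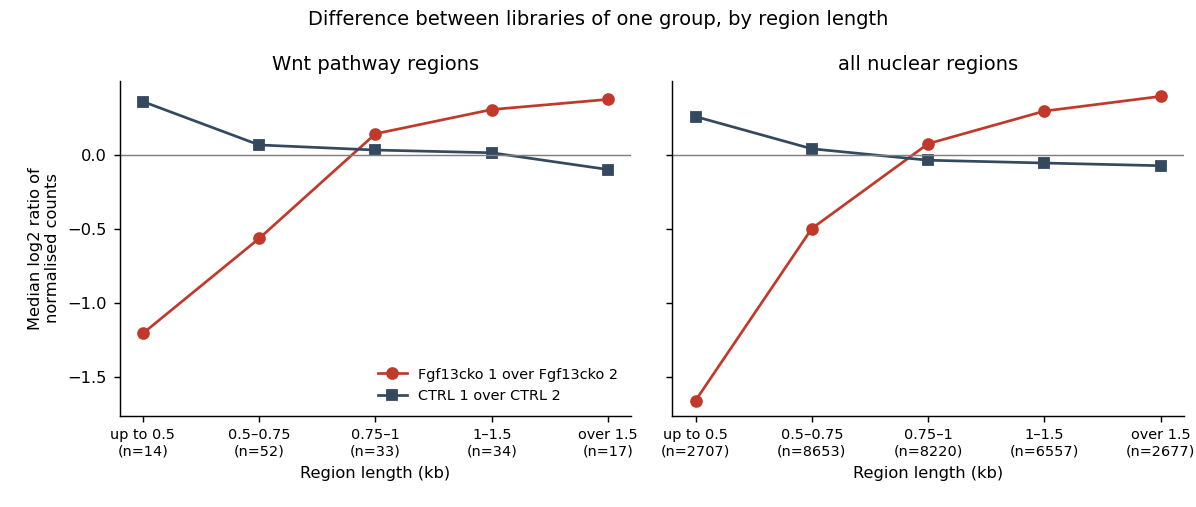
Median log2 ratio of normalised counts between the 2 libraries of each group (vertical axis) by region length in kb (horizontal axis), for the Wnt pathway regions (left) and all nuclear regions (right). Red circles give Fgf13cko 1 over Fgf13cko 2, which runs from -1.21 to 0.38 in the Wnt pathway regions, and dark squares give CTRL 1 over CTRL 2, which stays between -0.10 and 0.36.

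At start sites, no Wnt pathway gene passed the test. Of 11116 genes tested by edgeR's quasi-likelihood test of Fgf13cko over CTRL, 2.43% had a Benjamini-Hochberg adjusted p under 0.05 (1.95% rose and 0.477% fell), and of the 38 Wnt pathway genes 0 did. Unadjusted p-values under 0.05 were found for 10 of the 38 genes, 9 higher and 1 lower in Fgf13cko, against 19.3% of all genes, and DESeq2 likewise gave 0 adjusted calls, with 4 genes at an unadjusted p under 0.05. The groups did not overlap in 21 of the 38 genes, 14 with both Fgf13cko libraries above both CTRL libraries and 7 with both below. Over all genes 51.3% did not overlap, 26.2% with both above and 25.1% with both below. The median log2 fold change was -0.02 over the 38 genes and -0.01 over all genes.

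**Figure D2:**
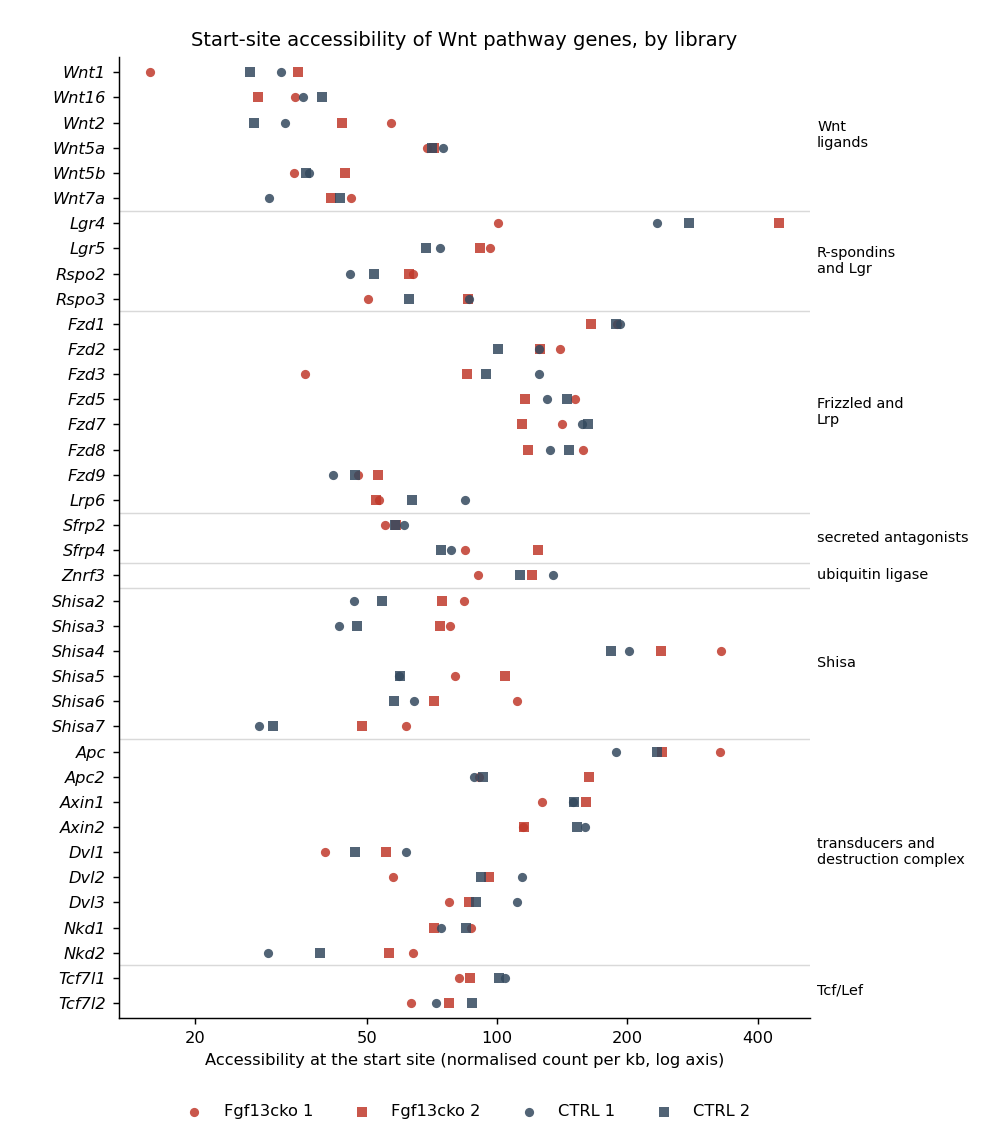
Start-site accessibility of the 38 Wnt pathway genes, as normalised count per kb of region on a log axis (horizontal), in each library (red: Fgf13cko, dark: CTRL; circle: library 1, square: library 2), grouped by role. Wnt ligands sit lowest and Lgr4, Apc and Shisa4 highest, and in the 6 Shisa genes both red points lie to the right of both dark ones.

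Away from start sites, 5 of 42 Wnt pathway genes passed, beside 12.1% of the 8441 genes tested. Fzd10 and Wnt2 rose, which 8.41% of all genes did, and Shisa2, Axin2 and Sfrp5 fell, which 3.73% did. Among single regions, 9 of 150 passed, beside 7.52% of 28814 regions. Regions next to Fzd10, Wnt2, Wnt11 and Nkd1 rose, beside 5.73% of all regions, and regions next to Shisa2, Dkk1, Wnt7b, Tcf7l2 and Dkk2 fell, beside 1.79%. All 9 lay between 18.8 kb and 166 kb from the start site. The groups did not overlap in 29 of the 42 sums and in 79 of the 150 regions, against 59.5% of sums and 54.0% of regions in the whole table. Both Fgf13cko libraries were above both CTRL libraries in 14 of the 42 sums (31.7% over the table) and below them in 15 (27.8%), and the same counts for single regions were 41 of 150 (26.9%) and 38 of 150 (27.1%). In each of the 3 fits the share of Wnt pathway features that passed was close to or below the share over the whole table. Rises made up 69.3% of all sum calls and 76.2% of all region calls. When libraries were scaled by their tag totals alone, the shares were 57.8% of sum calls and 74.5% of region calls. Under scaling that follows tag abundance (a loess offset) they were 56.6% and 61.7%. Some marker genes of cell types passed too. Away from start sites, of 3 astrocyte markers Gfap fell (log2 -1.16, adjusted p = 0.00682), Aldh1l1 rose (0.52) and Aqp4 did not pass (-0.24). Fabp7 was the 1 of 8 stem cell and radial glia markers that rose (1.16; list median -0.03), and Olig1 the 1 of 4 oligodendrocyte lineage markers (0.63), among which Pdgfra stood at -0.80 without passing. None of the 4 neuronal markers passed there. The part of cell composition in the Wnt pathway values was not tested, and in bulk libraries more cells of a type cannot be told apart from more open chromatin per cell.

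**Figure D3:**
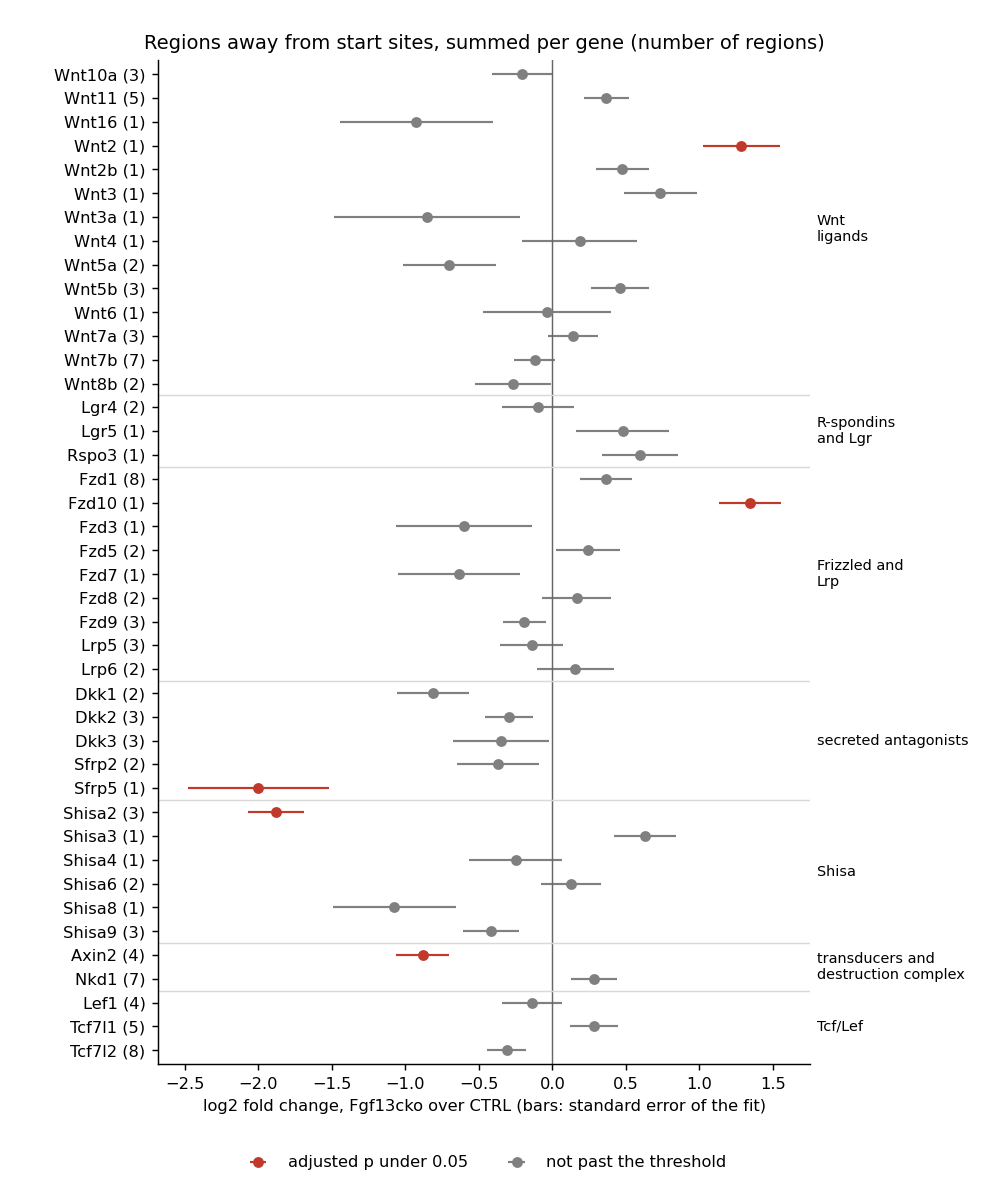
Log2 fold change of Fgf13cko over CTRL (horizontal axis; bars are the standard error of the fit) of the regions away from start sites, summed for each of 42 genes, with the number of regions in brackets. The 5 genes in red passed the test, Wnt2 and Fzd10 to the right and Axin2, Shisa2 and Sfrp5 to the left. The 5 secreted antagonists of the name rule all lie left of 0.

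**Figure D4:**
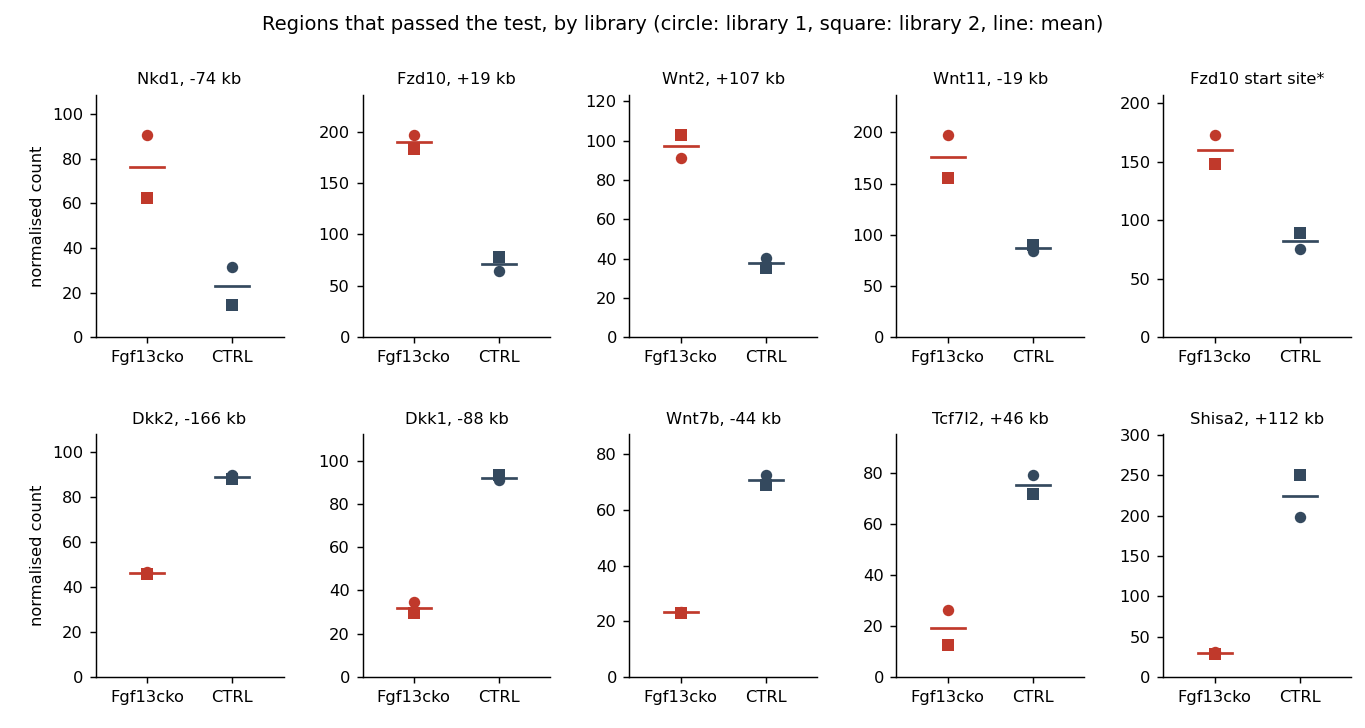
Normalised counts (vertical axes, each from 0) of the 9 regions that passed the test and of the Fzd10 start site, which the table gives to a neighbouring gene (asterisk), in Fgf13cko libraries (left in each panel) and CTRL libraries (right), with lines at the group means. The 5 regions of the upper row are higher in both Fgf13cko libraries, and the 5 of the lower row are lower, most of all the Shisa2 region, at 31.4 and 28.3 in Fgf13cko against 198 and 250.4 in CTRL.

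Among the Wnt ligands, Wnt2 stood higher in Fgf13cko both at a distant region and at its start site. A region of 0.817 kb in an intron of the neighbouring gene St7, 107 kb from the Wnt2 start site (mm10 chr6:17923210-17924026), had 91.2 and 103 normalised counts in Fgf13cko 1 and 2, against 40.5 and 35.5 in CTRL 1 and 2. The groups were well apart. Its log2 fold change was 1.35 (SE 0.25, adjusted p = 0.0142, edgeR), and as the only other region of Wnt2 it also carried the sum (1.29, SE 0.26, adjusted p = 0.0204). The start site of Wnt2 had 133 and 102 normalised counts in Fgf13cko, against 75.6 and 64.0 in CTRL, again without overlap, but its log2 fold change of 0.75 (SE 0.21) missed the threshold at an adjusted p of 0.0881. With Fgf13cko 2 left out the start site passed (log2 0.93), in a fit that called far more start sites over the whole table as well. The distant region lost its call without CTRL 1 or CTRL 2. Wherever a library was left out, the one left in its group was taken to vary like the others.

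The 250 bases before the Wnt2 start site (GRCm38.p6 RefSeq, chr6:18030446-18030695, minus strand) are shown because both the start site and the distant region of this ligand stood higher in Fgf13cko. They hold 20 CG dinucleotides and no match to the Tcf/Lef core TCAAAG or its reverse complement CTTTGA, which capitals would mark.
Wnt2: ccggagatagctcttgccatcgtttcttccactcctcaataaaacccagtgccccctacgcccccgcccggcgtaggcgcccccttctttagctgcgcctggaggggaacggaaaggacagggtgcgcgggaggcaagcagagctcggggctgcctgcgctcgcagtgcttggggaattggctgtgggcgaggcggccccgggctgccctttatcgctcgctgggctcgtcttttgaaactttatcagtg

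The second ligand with a called region was Wnt11, which acts largely without beta-catenin in cell movement. Its region 19.2 kb upstream (mm10 chr7:98814907-98816819) had 197 and 155 normalised counts in Fgf13cko 1 and 2, against 83.9 and 90.0 in CTRL 1 and 2, a log2 fold change of 1.02 (SE 0.21, adjusted p = 0.0214, edgeR). This call too was lost without CTRL 1 (adjusted p = 0.240) or CTRL 2 (0.207). The opposite change was found at Wnt7b, a ligand made in the developing cortex. Its region 44.3 kb upstream, which the table annotates as a CpG island (mm10 chr15:85625714-85626515), had 23.4 and 23.1 normalised counts in Fgf13cko, against 72.6 and 68.8 in CTRL (log2 -1.63, SE 0.30, adjusted p = 0.0144). The 2 Fgf13cko libraries were at about the same level, and the call was lost without CTRL 1 (0.218) or CTRL 2 (0.204). The other 6 regions of Wnt7b ran from -0.47 to 0.83 on the log2 scale and none passed, so the sum over its 7 regions was -0.12 (SE 0.14).

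Other ligands did not pass. Wnt3, the ligand after Wnt2 in the order of p-values, had a single other region, within Nsf, with 122 and 90.2 normalised counts in Fgf13cko 1 and 2, against 63.2 and 63.6 in CTRL 1 and 2 (log2 0.74, SE 0.25, adjusted p = 0.0928). The start site of Wnt7a had 117 and 105 in Fgf13cko and 75.6 and 110 in CTRL (log2 0.25, SE 0.22), so the groups overlapped. Over the 14 ligands with other regions the median log2 fold change was 0.05, with 7 higher and 7 lower, and over the 6 with a start-site region it was 0.03. Per kb of region, ligand start sites were the least open of the role groups with more than 1 gene, with a median of 38.9 normalised counts per kb against 99.1 over all genes. Wnt5a stood highest at 71.4 per kb and Wnt1 lowest at 27.2 per kb. Wnt3a, the hem ligand, had no start-site region, and its single other region had 9.43 and 10.2 normalised counts in Fgf13cko 1 and 2, against 16.6 and 18.7 in CTRL. The groups did not overlap, and the difference did not pass (log2 -0.85, SE 0.63, adjusted p = 0.415).

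R-spondins strengthen Wnt signalling by binding Lgr4, Lgr5 or Lgr6 and withdrawing Znrf3 and Rnf43 from the receptors. None of the 4 genes measured at the start site and none of the 3 measured elsewhere passed. Lgr5, a stem cell receptor in several tissues, had 125 and 118 normalised counts at its start site in Fgf13cko 1 and 2, against 95.6 and 88.4 in CTRL 1 and 2 (log2 0.40, SE 0.18, adjusted p = 0.261). Rspo2 had 65.6 and 64.2 at its start site in Fgf13cko, against 46.8 and 53.3 in CTRL (log2 0.38, SE 0.25), and the only other region of Rspo3 had 136 and 91.7 in Fgf13cko, against 71.2 and 78.3 in CTRL (log2 0.60, SE 0.26, adjusted p = 0.170). The other regions of Lgr5 had 55.4 and 47.1 in Fgf13cko, against 40.1 and 32.9 in CTRL (log2 0.48, SE 0.32, adjusted p = 0.359). In these 4 sums both Fgf13cko libraries were above both CTRL libraries, as were 26.2% of all start-site sums and 31.7% of all other sums. In the group's other 3 sums the groups overlapped: the start sites of Lgr4 (log2 0.08) and Rspo3 (-0.14) and the other regions of Lgr4 (-0.10). Per kb, Lgr4 was the most open start site of all Wnt pathway genes, at 265 normalised counts per kb, with the spread between the Fgf13cko libraries given above, and Rspo2 the least open of its group at 56.0 per kb. Of the ubiquitin ligases, Znrf3 alone had a start-site region, with 63.4 and 84.4 normalised counts in Fgf13cko and 94.6 and 79.3 in CTRL, and the groups overlapped.

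Frizzled receptors were among the more open start sites, with a median of 129 normalised counts per kb over 8 genes of the Frizzled and Lrp group, and none passed the test there under its own name. Fzd1 was highest at 183 per kb and Fzd9 lowest at 47.3 per kb. Fzd7 had 237 and 192 normalised counts in Fgf13cko 1 and 2, against 263 and 272 in CTRL 1 and 2 (log2 -0.32, SE 0.16, adjusted p = 0.296), and Fzd3, whose region is under 0.5 kb long, had 15.6 and 37.0 in Fgf13cko, against 54.1 and 40.9 in CTRL (log2 -0.87, SE 0.42, adjusted p = 0.280). Without Fgf13cko 1 the start site of Fzd7 passed, and without Fgf13cko 2 that of Fzd3, in fits that called far more start sites over the whole table as well. Fzd1 had 8 other regions, whose sum was 832 and 589 in Fgf13cko, against 534 and 568 in CTRL (log2 0.37, SE 0.18, adjusted p = 0.222).

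Fzd10 was the receptor with calls. Its only region in the sums, 18.8 kb downstream of the start site in intergenic DNA (mm10 chr5:128619099-128620648), had 197 and 184 normalised counts in Fgf13cko 1 and 2, against 64.7 and 78.3 in CTRL 1 and 2. The groups lay far apart, and the log2 fold change was 1.40 (SE 0.20, adjusted p = 0.00633, edgeR), or 1.34 (adjusted p = 0.00939) in the fit of the sums. The region over the Fzd10 start site (mm10 chr5:128599554-128601831) is given in the table to 5930412G12Rik, whose annotated start lies closer to its centre. It moved the same way, with 173 and 148 normalised counts in Fgf13cko, against 75.0 and 89.5 in CTRL (log2 0.96, SE 0.21, adjusted p = 0.0271), so reads cannot be attributed to one of these 2 genes. Without CTRL 1 the adjusted p was 0.0835 for the downstream region and 0.332 for the start site, and without CTRL 2 it was 0.0644 and 0.182. DESeq2 gave 0.0505 for the start site. The authors' peak over the downstream region was 1525 and 1550 bases long in Fgf13cko 1 and 2, and 197 and 325 bases long in CTRL 1 and 2.

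The 250 bases before the start site of Fzd10 (GRCm38.p6 RefSeq, chr5:128600856-128601105, plus strand) lie wholly inside that region, are 76.4% G or C, and hold 37 CG dinucleotides and no match to the Tcf/Lef core. The window before the Fzd1 start site (chr5:4758217-4758466, minus strand), shown for comparison as a receptor whose start site did not pass, holds 1 match, in capitals, whose first base is 242 bases before the start site. The windows of Fzd5, Fzd7 and Fzd9, whose start sites did not pass either, hold no match, so the match does not set apart receptors that did not pass.
Fzd10: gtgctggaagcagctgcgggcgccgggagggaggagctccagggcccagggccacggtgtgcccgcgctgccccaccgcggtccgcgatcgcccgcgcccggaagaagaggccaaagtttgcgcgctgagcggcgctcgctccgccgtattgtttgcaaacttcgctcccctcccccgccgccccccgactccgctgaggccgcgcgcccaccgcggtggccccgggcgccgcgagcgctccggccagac
Fzd1: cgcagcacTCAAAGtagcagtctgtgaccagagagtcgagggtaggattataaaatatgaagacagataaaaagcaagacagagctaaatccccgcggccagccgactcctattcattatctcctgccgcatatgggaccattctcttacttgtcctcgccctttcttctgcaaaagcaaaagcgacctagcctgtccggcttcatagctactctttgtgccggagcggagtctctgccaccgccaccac
Of the 11179 RefSeq windows of this length before start sites of genes with a tested start-site sum, 10.3% hold the core on either strand, and so do 3 of the 35 such windows of Wnt pathway genes. Of all 32851 RefSeq windows, 13.8% hold it.

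The secreted antagonists block Wnt signalling outside the cell: Dkk1 and Dkk2 bind Lrp5 and Lrp6, and Sfrp proteins bind Wnt ligands themselves. The group was formed by name, and Dkk3 was counted in it on that ground alone. All 5 antagonists of the name rule with regions away from start sites had lower sums in Fgf13cko, where 48.9% of all sums were lower. Log2 fold changes of the 5 ran from -2.0 to -0.30, with a median of -0.37. Of the 5, 1 passed the test, beside 12.1% of all sums. Both Fgf13cko libraries were below both CTRL libraries in 3 of the 5, against 27.8% of all sums. Of their 11 single regions away from start sites, 8 were lower and 3 higher, where 46.4% of all such regions were lower. The lower sums of Dkk1 and Dkk2 rested in part on distant regions, given below, while each gene's nearest other region was higher in Fgf13cko. Antagonists that the name rule leaves out went both ways away from start sites. Wif1 (log2 0.85) and Draxin (0.73) rose, the membrane protease Trabd2b fell (-1.39), and Apcdd1 (0.40) and Sostdc1 (0.34) did not pass. The sums of Dkk3 and Sfrp2 were low in Fgf13cko 1 alone. Dkk3 had 73.1 and 167 normalised counts in Fgf13cko 1 and 2, against 157 and 153 in CTRL 1 and 2, and Sfrp2 had 56.0 and 89.8 in Fgf13cko, against 86.8 and 104 in CTRL. Their 5 regions were between 0.336 and 0.831 kb long, and the part of length in these sums was not tested. At start sites, Sfrp2 (58.0 normalised counts per kb, the lower of the pair measured) had 70.6 and 74.6 normalised counts in Fgf13cko and 78.0 and 74.4 in CTRL (log2 -0.07, SE 0.21). Sfrp4 (90.1 per kb) had 66.7 and 98.3 in Fgf13cko, against 61.9 and 58.7 in CTRL (log2 0.44, SE 0.24), and neither passed.

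Dkk1 and Dkk2 each had 1 region that fell. The Dkk1 region, 88.3 kb upstream and inside an intron of Prkg1 (mm10 chr19:30637331-30638227), had 34.8 and 29.4 normalised counts in Fgf13cko 1 and 2, against 90.8 and 93.4 in CTRL 1 and 2 (log2 -1.53, SE 0.26, adjusted p = 0.0105, edgeR). Its other distant region was higher in Fgf13cko (log2 0.50), and the sum of both, 81.9 and 57.2 in Fgf13cko against 118 and 125 in CTRL, missed the threshold (log2 -0.81, SE 0.24, adjusted p = 0.0659). The Dkk2 region, 166 kb upstream in intergenic DNA (mm10 chr3:131919403-131920181), had 46.8 and 45.6 in Fgf13cko, against 89.8 and 87.8 in CTRL (log2 -0.94, SE 0.23, adjusted p = 0.0455). Of the other Dkk2 regions, the one 1.9 kb downstream was higher, at 82.7 and 99.1 in Fgf13cko against 68.1 and 67.0 in CTRL (log2 0.42). The one 52.8 kb downstream was lower (log2 -0.38), and neither passed. With regions beyond 20 kb left out, the Dkk1 sum stood at 0.51. In both regions that fell, the 2 libraries of a group lay close together and the groups were far apart. The Dkk1 call was lost without CTRL 1 (adjusted p = 0.101) or CTRL 2 (0.145), the Dkk2 call without either (0.395 and 0.389) and with DESeq2 (0.201).

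Sfrp5 rested on 1 short region of 0.409 kb in the 3' UTR of the neighbouring gene Zfyve27, 8.67 kb from the Sfrp5 start site (mm10 chr19:42193381-42193789). It had 6.48 and 15.0 normalised counts in Fgf13cko 1 and 2, against 52.7 and 40.9 in CTRL 1 and 2, which is a log2 fold change of -2.0 (SE 0.48, adjusted p = 0.0328, edgeR) in the fit of the sums. In the fit of single regions the same region missed the threshold (-1.92, adjusted p = 0.0585), DESeq2 gave it no adjusted p, and without CTRL 1 or CTRL 2 the adjusted p was 0.363 or 0.164. Its length falls in the class in which Fgf13cko 1 was generally low, and the part of length in this result was not tested.

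Shisa2 and Shisa3 hold Frizzled and FGF receptors back inside the cell during their maturation, whereas Shisa6, Shisa7 and Shisa9 are known as partners of AMPA-type glutamate receptors. All 6 Shisa genes measured at the start site were higher in both Fgf13cko libraries than in either CTRL library, a pattern that 26.2% of all genes showed, and none passed the adjusted threshold. The start site of a further family member, Shisal2b, lies in a region that the table gives to Fam159b, and there the groups overlapped, at 42.2 and 35.1 normalised counts in Fgf13cko and 36.0 and 51.0 in CTRL (log2 -0.16, SE 0.34). In the 6 Shisa genes the log2 fold changes ran from 0.57 to 0.90 with a median of 0.63, and the adjusted p-values from 0.0988 to 0.202. Shisa5 had 146 and 190 normalised counts in Fgf13cko 1 and 2, against 108 and 109 in CTRL 1 and 2 (log2 0.62, SE 0.19, adjusted p = 0.0988), and Shisa4 had 301 and 218 in Fgf13cko, against 184 and 167 in CTRL (log2 0.57, SE 0.18, adjusted p = 0.113). Shisa4 was the most open of the 6 at 238 per kb and Shisa7 the least at 42.1 per kb. Away from start sites the family did not share a direction: of 6 Shisa genes, Shisa3 was above both CTRL libraries, Shisa2, Shisa8 and Shisa9 were below both, and Shisa4 and Shisa6 overlapped, with a median log2 fold change of -0.33. The single other region of Shisa3 had 215 and 155 normalised counts in Fgf13cko, against 123 and 115 in CTRL (log2 0.63, SE 0.21, adjusted p = 0.0914). The single other region of Shisa8 (log2 -1.08, SE 0.42, adjusted p = 0.131) and the sum over the 3 other regions of Shisa9 (-0.42, SE 0.19, 0.192) did not pass either. With Fgf13cko 2 left out, the start sites of Shisa2, Shisa3, Shisa4, Shisa6 and Shisa7 passed, and with Fgf13cko 1 left out that of Shisa5 passed. Both of those fits called far more start sites over the whole table as well, so these passes do not set the Shisa genes apart.

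At start sites 1.95% of all genes rose. Among the neuronal markers there Syt1 and Map2 rose, Snap25 had a log2 fold change of 0.58 (adjusted p = 0.113, edgeR) and Tubb3 one of -0.03, while Dcx and Rbfox3 had no start-site region. Summed over the 4 markers, normalised counts were 643 and 705 in Fgf13cko 1 and 2 and 390 and 411 in CTRL 1 and 2. Of the 9 stem cell and radial glia markers at start sites, 2 rose, Fabp7 and Nes, and the other 7 did not pass, with a median over the list of 0.04. The part of cell composition in the Shisa values was not tested.

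The largest fold change at any Wnt pathway region was next to Shisa2, in the direction opposite to the difference at its start site. A region of 0.777 kb in an intron of Atp8a2, 112 kb downstream of the Shisa2 start site (mm10 chr14:59736905-59737681), had 31.4 and 28.3 normalised counts in Fgf13cko 1 and 2, against 198 and 250.4 in CTRL 1 and 2. Its log2 fold change of -2.89 (SE 0.24, adjusted p = 0.0039, edgeR) was the lowest of all 28814 regions tested, and it passed in all 13 settings run, between -3.06 and -2.71. The region held a peak in every library, with the authors' fold enrichment at 4.46 and 3.57 in Fgf13cko and 7.69 and 9.14 in CTRL. A second Shisa2 region in Atp8a2, 213 kb from the start site, had few tags and a higher mean in Fgf13cko (log2 1.52, SE 0.70, adjusted p = 0.242). The sum over the 3 other regions fell to 68.4 and 76.7 in Fgf13cko, against 249 and 286 in CTRL (log2 -1.88, SE 0.19, adjusted p = 0.00374), and 77.0% of its tags came from the strongest region. With regions beyond 100 kb left out, that one among them, the sum was -0.59 (adjusted p = 0.628). The start site of Shisa2 had 81.2 and 72.3 in Fgf13cko, against 45.4 and 52.5 in CTRL (log2 0.64, SE 0.24, adjusted p = 0.175).

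The 250 bases before the Shisa2 start site (GRCm38.p6 RefSeq, chr14:59625031-59625280, plus strand), which its start-site region overlaps at the 3' end, are shown as the promoter of the gene whose distant region fell. They are 56.0% G or C with 14 CG dinucleotides and hold no Tcf/Lef core. No genome of this build was used here, so the sequence of the distant region is not shown.
Shisa2: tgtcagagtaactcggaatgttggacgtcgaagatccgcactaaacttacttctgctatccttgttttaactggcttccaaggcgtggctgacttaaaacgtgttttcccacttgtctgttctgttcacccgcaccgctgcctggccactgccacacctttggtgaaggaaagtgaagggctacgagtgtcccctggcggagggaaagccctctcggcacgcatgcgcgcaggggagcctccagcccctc

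Among the cytoplasmic proteins, Axin2 is both a scaffold of the destruction complex and a widely used target of the pathway. Its start site was less open in both Fgf13cko libraries, with 217 and 219 normalised counts, against 303 and 290.4 in CTRL 1 and 2. The libraries of a group lay close together and the groups did not overlap, yet the log2 fold change of -0.44 (SE 0.14) missed the threshold (adjusted p = 0.128, edgeR). The start site passed when either Fgf13cko library was left out, in fits that called far more start sites over the whole table as well. Its sum of other regions fell to 273 and 378 in Fgf13cko, against 641 and 566 in CTRL (log2 -0.88, SE 0.18, adjusted p = 0.0199), but one region of 0.482 kb, 91.5 kb downstream, annotated as a ribosomal RNA repeat, decided that value. The repeat region had 51.3 and 238 normalised counts in Fgf13cko 1 and 2, against 438 and 359 in CTRL, and held 19.4% and 58.3% of the tags of the sum in Fgf13cko and 69.5% and 65.2% in CTRL. Without it the sum was 220 and 158 in Fgf13cko, against 195 and 197 in CTRL, and with all ribosomal repeat regions left out, a setting chosen after the data were seen, the log2 fold change was -0.11 (adjusted p = 0.753). Of the 15 ribosomal repeat regions tested in the whole table, 10 had both Fgf13cko libraries below both CTRL libraries, with a median log2 fold change of -1.26. Without CTRL 1 the adjusted p of the full sum was 0.0736.

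The 250 bases before the Axin2 start site (GRCm38.p6 RefSeq, chr11:108920099-108920348, plus strand) lie within its start-site region. They are shown because Axin2 is the pathway's own target: this window holds 24 CG dinucleotides and no Tcf/Lef core, which says nothing of sites elsewhere in the gene.
Axin2: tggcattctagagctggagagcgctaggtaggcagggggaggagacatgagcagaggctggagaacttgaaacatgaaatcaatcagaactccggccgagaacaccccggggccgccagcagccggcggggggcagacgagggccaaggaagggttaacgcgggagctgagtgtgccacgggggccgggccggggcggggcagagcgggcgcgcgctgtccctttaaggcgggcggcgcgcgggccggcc

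None of the remaining cytoplasmic members passed at the start site. Apc was the most open at 247 per kb and Nkd2, a feedback inhibitor that binds Dishevelled, the least at 47.1 per kb. Nkd2 had 62.3 and 54.9 normalised counts in Fgf13cko 1 and 2, against 28.8 and 38.0 in CTRL 1 and 2 (log2 0.80, SE 0.30, adjusted p = 0.172). Among the 4 libraries left out in turn, it passed only with Fgf13cko 2 left out, in a fit that called far more start sites over the whole table as well. Nkd1, its relative, had 7 other regions spread from 73.5 kb upstream to 52.3 kb downstream. The farthest upstream (mm10 chr8:88447449-88448226) rose, with 90.6 and 62.4 in Fgf13cko, against 31.6 and 14.7 in CTRL (log2 1.74, SE 0.40, adjusted p = 0.0331), and lost its call without CTRL 2 (0.266). The next region, 67.0 kb upstream, was lower in both Fgf13cko libraries (log2 -0.85, SE 0.40, adjusted p = 0.249), and the sum over all 7 was 327 and 303 in Fgf13cko, against 282 and 237 in CTRL (log2 0.28, SE 0.16, adjusted p = 0.281).

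The Tcf/Lef factors, which bring beta-catenin to DNA, were measured at the start site in Tcf7l1 and Tcf7l2. Tcf7l1 had 180 and 191 normalised counts in Fgf13cko 1 and 2, against 230.2 and 222 in CTRL 1 and 2 (log2 -0.29, SE 0.15, adjusted p = 0.323), and Tcf7l2 had 88.4 and 109 in Fgf13cko, against 101 and 122 in CTRL (log2 -0.18, SE 0.20, adjusted p = 0.660). Per kb they stood at 93.3 and 74.9. No region was centred within 1 kb of the Lef1 start, and its 4 regions, all counted among the other regions, summed to 331 and 227 in Fgf13cko and 280 and 332 in CTRL (log2 -0.14, SE 0.20). The nearest of these (mm10 chr3:131110198-131112687) covers the start site, with its centre 1.15 kb downstream, and had 141 and 83.4 in Fgf13cko and 80.4 and 112 in CTRL, and the farthest, 164 kb upstream, had 115 and 78.1 in Fgf13cko, against 130 and 167 in CTRL (log2 -0.64, adjusted p = 0.164).

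Within Tcf7l2 and Tcf7l1, regions of one gene differed between the groups in opposite directions. The sum of other regions was 568 and 527 normalised counts in Fgf13cko, against 701 and 660.3 in CTRL, for Tcf7l2 (log2 -0.31, SE 0.13, adjusted p = 0.169), and 589 and 495 in Fgf13cko, against 402 and 487 in CTRL, for Tcf7l1 (log2 0.28, SE 0.16, adjusted p = 0.286). Of the 8 other regions of Tcf7l2, 2 had both Fgf13cko libraries above both CTRL libraries and 4 had both below. The one 45.7 kb downstream (mm10 chr19:55940539-55941464) fell, with 26.2 and 12.6 normalised counts in Fgf13cko 1 and 2, against 79.5 and 71.8 in CTRL 1 and 2 (log2 -1.96, SE 0.37, adjusted p = 0.0167, edgeR), and its call was lost without CTRL 1 (0.166) or CTRL 2 (0.141). The region 75.0 kb downstream had 105 and 72.3 in Fgf13cko, against 57.2 and 39.8 in CTRL (log2 0.87, SE 0.29, adjusted p = 0.114). In Tcf7l1 the region 48.1 kb downstream in an intron had 63.8 and 62.9 in Fgf13cko, against 25.2 and 33.3 in CTRL (log2 1.11, SE 0.30, adjusted p = 0.0624), and the next intronic region, at 58.4 kb, had 35.9 and 68.2 in Fgf13cko, against 108 and 103 in CTRL (log2 -1.0, SE 0.29, adjusted p = 0.0760). Of the 17 Wnt pathway genes with at least 3 other regions, 9 had both a region above and a region below both CTRL libraries, as did 45.4% of the 2082 genes of the table with as many, so a sum near 0 could join regions that differed in direction.

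**Figure D5:**
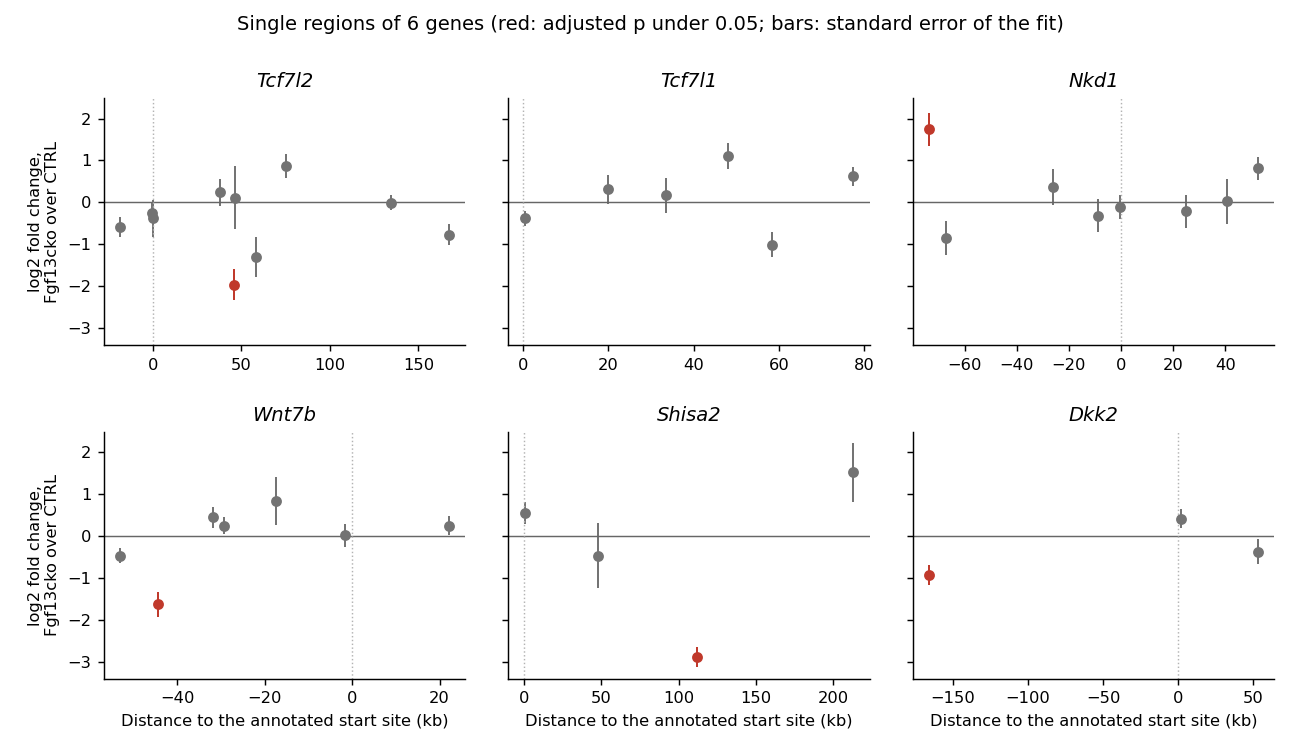
Log2 fold change of Fgf13cko over CTRL (vertical axis; bars are the standard error of the fit) of each region of 6 genes, by distance in kb to the annotated start site (horizontal axis, positive downstream, dotted line at 0). Red points passed the test, at Tcf7l2, Nkd1, Wnt7b, Shisa2 and Dkk2, and other regions of the same genes lie on the far side of 0.

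Matching genes of the annotation numbered 76, and 20 of them had no region in the table. RefSeq gave a start site for 13 of these 20, and 9 of the 13 had a peak within 1 kb of it in at least 1 library and 3 in all 4 libraries. Ctnnb1, which encodes beta-catenin itself, was one of the 3, with the authors' fold enrichment at 3.85 and 3.50 in Fgf13cko 1 and 2 and 4.42 and 3.95 in CTRL 1 and 2, but its peaks did not merge into one region shared by every library. The start site of Fzd4 lies in a region that the table gives to Tmem135, with 509 and 336 normalised counts in Fgf13cko, against 295 and 298 in CTRL (log2 0.51, SE 0.23, adjusted p = 0.237). Rnf43 had a peak in Fgf13cko 1 and in both CTRL libraries, and Wnt9a and Rspo1 in CTRL 2 alone.

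Pathway genes outside the name rule were counted from a list of 52 partners and a list of 18 targets. At start sites 1 of 42 partners rose and 1 fell, beside 1.95% and 0.477% of all genes, and elsewhere 5 of 37 rose and 2 fell, beside 8.41% and 3.73%. Wls, which carries Wnt proteins to the cell surface for secretion, rose away from its start site to 573 and 500.2 normalised counts in Fgf13cko 1 and 2, against 246 and 248 in CTRL 1 and 2 (log2 1.12, SE 0.15, adjusted p = 0.00582, edgeR). Trabd2b, a membrane protease that inactivates Wnt proteins, fell to 137 and 139 in Fgf13cko, against 358 and 366 in CTRL (log2 -1.39, SE 0.16, adjusted p = 0.00419). The calls of Wls and Trabd2b held with any 1 library left out, but Wls regions within 20 kb of the start site alone gave -0.60, in the opposite direction. At its start site Celsr3, a cadherin of planar cell polarity, rose to 224 and 176 in Fgf13cko, against 72.2 and 73.1 in CTRL (log2 1.47, SE 0.19, adjusted p = 0.00437), though not without CTRL 1 (0.219) or CTRL 2 (0.491).

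The other partner calls were smaller. Away from start sites Kremen1 (a Dkk receptor, log2 0.70), Vangl1 (planar cell polarity, 0.80), Wif1 (a secreted Wnt binder, 0.85) and Draxin (an Lrp6 antagonist and axon guidance protein, 0.73) rose, and Ctnnbip1 (an inhibitor of the binding of beta-catenin to Tcf, -1.04) fell, while Senp2 (a protease for SUMO, -0.73) fell at its start site. Each of these 6 calls was lost without CTRL 1 and without CTRL 2, with adjusted p-values from 0.143 to 0.637, and DESeq2 did not call Draxin (0.0632), Wif1 (0.0823) or Senp2 (0.123). With regions beyond 20 kb left out, Kremen1 stood at 0.05 (adjusted p = 0.936). Bcl9, a coactivator of beta-catenin, missed the threshold at its start site with 212 and 168 normalised counts in Fgf13cko, against 299 and 305 in CTRL (log2 -0.67, SE 0.16, adjusted p = 0.0520). Of the targets, 1 of 15 fell at the start site, beside 0.477% of all genes, namely Id2 (log2 -0.69, SE 0.15, adjusted p = 0.0320, edgeR), an inhibitor of bHLH factors. Elsewhere 2 of 16 targets rose, beside 8.41% of all genes. They were Prox1 (1.47, SE 0.37, adjusted p = 0.0371), a factor of dentate granule cells, and Ccnd1 (0.57, SE 0.15, adjusted p = 0.0476), a cyclin of cell cycle entry. The calls of Id2, Prox1 and Ccnd1 were also lost without either CTRL library. The call of Ccnd1 held in 5 of 16 settings and that of Draxin in 6 of 16. The other regions of Jag1, a Notch ligand, held 1498 and 1202 normalised counts in Fgf13cko, against 950.2 and 936 in CTRL, and missed the threshold (log2 0.52, SE 0.15, adjusted p = 0.0560). At start sites Csnk1d, a kinase of the casein kinase 1 family (partner, log2 0.65, adjusted p = 0.132), Tnfrsf19, a receptor of the TNF family (target, 0.44, 0.203), Ccnd2, a cyclin (target, 0.33, 0.249), and Ppard, a nuclear receptor (target, -0.44, 0.270), did not pass, nor did the other regions of Neurod1, a neuronal bHLH factor (target, -0.77, adjusted p = 0.122). The median log2 fold change of the partners was -0.08 at start sites and 0.06 elsewhere, and that of the targets was 0.10 and -0.09. Both lists were drawn up with earlier results of these data known.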

How the data were processed

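Open chromatin was assayed by ATAC-seq in 2 Fgf13cko and 2 CTRL neurosphere libraries. The authors deposited a table of estimated counts per region, made with HOMER on mm10 over merged broad peaks, per the file headers: raw tag counts that are multiples of 0.5, of which 50.2% are whole. They also deposited a list of broad peaks for each library, with a score, a fold enrichment (a ratio to the local background) and −log10 p and q values per peak, the lowest −log10 q being 1.00 to 1.01. Bowtie2, Picard, MACS2, DESeq2 and HOMER are named in the submitters' processing notes without versions. For trimming, the shift for Tn5, duplicate removal and filters on mitochondrial reads, settings were not given in the sources used here. Per the file headers the tag totals were 16.8 and 13.1 M in Fgf13cko 1 and 2, against 24.9 and 26.0 M in CTRL 1 and 2, with 64954 and 54373 peaks against 38006 and 47148.

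Regions with no gene name (9, of which 2 mitochondrial) held 38.5% and 31.5% of the table's tags in Fgf13cko and 67.7% and 68.4% in CTRL. The 2 mitochondrial regions took 9.54% and 9.19% of all tags in Fgf13cko 1 and 2, against 23.4% and 27.0% in CTRL 1 and 2. This difference follows the groups, and its part in the results was not tested. The 2 mitochondrial regions stayed out of all library sizes and tests. The nuclear regions with no gene name stayed out of the sums per gene, but entered the fit of single regions where they passed its filter. Counts were rounded and tested in R 4.3.3 with edgeR 4.0.16 (TMM, filterByExpr, robust quasi-likelihood test, two-sided, Benjamini-Hochberg over all features, threshold 0.05) in 3 fits over the whole table: sums per gene of regions within 1 kb of the start site, sums of all others, and single regions. Matching genes without a region were looked up in the peak lists, within 1 kb of RefSeq start sites. DESeq2 1.42.0, a loess offset (limma 3.58.1), other scalings, filters, distance limits and the omission of each library were alternatives. On simulated counts for the same features, 85% of start-site sums, 47% of other sums and 25% of single regions with an absolute log2 change of 1 were called, and 100%, 98% and 95% at 2. The simulation gave all features of a fit and both groups the same spread, without the trend with region length. In the data the SD of the log2 difference between the 2 libraries at start sites was 0.515 in Fgf13cko and 0.261 in CTRL. These rates may therefore be too high for the data. Each comparison rests on 2 libraries a group, which limits its precision.

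Values in every library are given for members that passed, for those with the 2 smallest p-values of each role group in the start-site and other fits, and for Ctnnb1, Axin2, Lef1, Tcf7, Tcf7l1, Tcf7l2, Shisa2 and Fzd10. Fold changes are given for the 4 smallest p-values of the partner and target lists or the calls among them, and levels for the highest and lowest start site per role group. The members and lists were chosen with earlier results of these data known.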

Additional observations from a re-analysis of the deposited data

Results flagged for a closer look

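Among Wnt pathway genes with no region in the count table, 3 had a peak within 1 kb of the start site in Fgf13cko 1 and in no CTRL library. The authors' fold enrichment of these peaks was 2.89 at Rspo4, 3.21 at Tcf7 and 3.33 at Wnt9b. Fgf13cko 2 had no peak at any of the 3 genes, and no peak reached a −log10 q of 2, so each rests on 1 library.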

How the results depend on the processing

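The libraries of Fgf13cko spread more than those of CTRL: the SD over regions of the log2 difference between the 2 libraries was 0.723 in Fgf13cko and 0.324 in CTRL. Leaving out 1 library in turn gave 0 to 11 Wnt pathway calls at start sites (0 in the full fit), 1 to 22 among other sums (5) and 1 to 52 among single regions (9), with more calls when an Fgf13cko library was left out and, where the full fit had any, fewer when a CTRL library was. Over all features these fits called 0 to 2761 start-site sums (270 in the full fit), 231 to 3819 other sums (1025) and 138 to 10120 regions (2168). Whether replicate numbers pair the libraries could not be decided. The deviations of same-numbered libraries correlated at -0.15, -0.23 and -0.23 in the 3 fits. But the ratio of library 1 over library 2 ran in opposite directions with region length in the 2 groups, which alone could lower such a correlation. With the replicate block 0, 5 and 17 members and 376, 984 and 3306 features passed. With crossed pairing 3, 8 and 15 members and 823, 1914 and 3304 features passed. The loess offset gave 20 member regions of 3590 called, and 483 calls at start sites with 0 members. DESeq2 called 129 start-site sums, 793 other sums and 1517 regions, with 0, 4 and 9 members, and gave no adjusted p for the other regions of Sfrp5, Lgr5 and Prox1. A minimum mean of 50 tags gave 438 start-site calls with 0 members. Limits of 100 kb and 20 kb on other regions each gave 3 members called, of 815 and 406 genes called. The Lef1 sum reversed to 0.23 within 100 kb and 0.24 within 20 kb, and ranged from -0.49 to 0.11 with 1 library left out. Within 20 kb the Dkk1 sum reversed to 0.51, Nkd1 to -0.32 and Wls to -0.60, since these limits remove the farther regions. A −log10 q of at least 2 left 5 of the 9 absent genes with a peak. Rises among all sum calls fell to 56.4% with the mean minimum of 50 tags. Of the values of named genes under the alternatives, 691 kept their direction and side of the threshold, 48 newly passed, 71 no longer passed and 6 reversed.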
